A study of Mus musculus with 23 samples.

Results

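The genes described here encode subunits of respiratory complex I, the NADH:ubiquinone oxidoreductase of the inner mitochondrial membrane. They were selected by name, as every mouse symbol that starts with Nduf except those that start with Ndufaf, which mark assembly factors; the rule uses the name alone. The RefSeq table held 46 such symbols, 41 of them protein coding and 5 pseudogenes. Of these, 38 had a probe on the array and 37 could be tested, among 23715 features tested in all. The exception was Ndufb3, whose only spot was marked as an outlier on 1 array, and its values are given separately below.

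The RNA came from gastrocnemius, a mostly fast-twitch calf muscle, of male C57BL/6J mice, and was hybridised to 1-colour Agilent arrays. The design text gives 4 mice per group, and another label gives 9 without saying which went on the arrays. Mice entered at 5 months (adult) or 24 months (old), carried no transgene or drug, and were 6 or 25 months old by the age label. Training lasted 4 weeks, every day. In high-intensity intermittent training (HIIT) mice ran 3 bouts, each 2 min long with a speed of 27 m/min, and slowed to 5 m/min for 1 min between bouts. In moderate-intensity continuous training (MICT) they ran once, for 45 min, with a speed of 13 m/min. Sedentary mice spent time on a stopped treadmill, and all mice rested 12 h before the muscle was taken. There were 4 arrays each of adult controls, adult HIIT, old controls, old HIIT and old MICT, and 3 of adult MICT, numbered 1, 3 and 4.

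Complex I takes electrons from NADH, passes them to ubiquinone and pumps protons across the inner membrane, and is the main entry point of electrons into the respiratory chain. It is shaped like an L. The peripheral arm, in the matrix, holds the flavin and the chain of iron-sulphur clusters in core subunits encoded in the nucleus; the core of the membrane arm is encoded by mitochondrial DNA, and accessory subunits cover both arms. Endurance training is known to raise the mitochondrial content of skeletal muscle, and the coactivator PGC-1alpha with NRF-1, the ETS factor GABPA and oestrogen-related receptors is known to drive transcription of nuclear genes for the respiratory chain. The mitochondrially encoded subunits were not analysed here.

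The bases upstream of 5 members are shown as a description, and no link between these bases and the levels was tested. They were taken from the RefSeq promoter table (build GRCm38.p6), which held 32 of the 37 tested members, and each run is the 250 bases before the annotated gene start, 5′ to 3′ on the gene's strand. Ndufs3 encodes a core subunit, Ndufa10, Ndufa6 and Ndufa7 accessory subunits with a called difference in both age and old MICT, and Ndufb4 a membrane arm subunit with 1 of the smallest spreads over arrays.
Ndufs3 (chr2:90904722-90904971, minus strand): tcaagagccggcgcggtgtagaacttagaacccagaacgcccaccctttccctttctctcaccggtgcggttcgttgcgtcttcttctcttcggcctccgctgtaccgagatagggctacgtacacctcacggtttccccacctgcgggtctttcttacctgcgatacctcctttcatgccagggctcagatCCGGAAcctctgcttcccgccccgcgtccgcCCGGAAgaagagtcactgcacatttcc
Ndufa10 (chr1:92473759-92474008, minus strand): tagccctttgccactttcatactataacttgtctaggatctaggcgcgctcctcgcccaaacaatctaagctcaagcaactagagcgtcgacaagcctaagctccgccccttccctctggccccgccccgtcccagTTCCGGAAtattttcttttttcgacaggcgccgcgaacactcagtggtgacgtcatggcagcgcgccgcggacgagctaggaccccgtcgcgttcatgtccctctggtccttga
Ndufa6 (chr15:82354292-82354541, minus strand): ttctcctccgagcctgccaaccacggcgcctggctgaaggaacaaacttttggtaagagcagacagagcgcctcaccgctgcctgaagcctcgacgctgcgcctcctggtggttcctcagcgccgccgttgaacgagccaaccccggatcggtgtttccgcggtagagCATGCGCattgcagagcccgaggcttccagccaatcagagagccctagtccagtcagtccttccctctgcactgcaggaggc
Ndufa7 (chr17:33824322-33824571, plus strand): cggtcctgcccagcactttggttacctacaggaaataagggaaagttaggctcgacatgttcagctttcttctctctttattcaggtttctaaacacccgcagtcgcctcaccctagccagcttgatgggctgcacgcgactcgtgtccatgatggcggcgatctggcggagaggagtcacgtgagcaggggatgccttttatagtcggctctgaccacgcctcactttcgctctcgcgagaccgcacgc
Ndufb4 (chr16:37654369-37654618, minus strand): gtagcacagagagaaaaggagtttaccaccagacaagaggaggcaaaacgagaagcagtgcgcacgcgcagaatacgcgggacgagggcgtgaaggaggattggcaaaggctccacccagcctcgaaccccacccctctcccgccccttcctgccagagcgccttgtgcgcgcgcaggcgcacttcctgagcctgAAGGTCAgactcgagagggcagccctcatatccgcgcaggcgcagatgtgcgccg
Capitals mark letters searched for on both strands: CCGGAA, the core bound by ETS factors, in Ndufs3 and in Ndufa10, where the forward and the reverse match overlap; GCGCATG, part of the NRF-1 site, on the reverse strand in Ndufa6; and AAGGTCA, the core bound by oestrogen-related receptors, in Ndufb4. Neither of the windows that the table holds for Ndufa7, of which the first is shown, contained any of them.

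The search covered 250 bases before and 50 after each start. The ETS letters CCGGAA were found for 10 of 32 members (31.2%) and for 4503 of 27025 genes in the table (16.7%). The NRF-1 letters GCGCATG were found for 5 members (15.6%) and for 4.41% of all genes, and the receptor letters AAGGTCA for 3 members (9.38%) and 5.38% of all genes. Longer forms, which were searched first, were rarer: GCGCATGCG was found for 2 members (6.25%, against 1.95% of all genes), CCGGAAGT for 1 (3.12%, against 4.31%) and TCAAGGTCA for none (against 0.466%). The shorter forms were added after these counts had been seen. These are counts of letters and were not tested.

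A level below is log2 of the processed signal minus the array's 75th percentile, so a level of 7 lies 7 doublings above that percentile. Levels of different genes come from different probes and are not compared with each other. A gene was called where the Benjamini-Hochberg adjusted p of limma's moderated test over all 23715 features was under 0.05, and values after ± are limma's standard error (SE) unless called an SD. All 37 members were well above background on all 23 arrays and no spot was saturated. In a muscle homogenate, fewer muscle cells and less of a transcript per muscle cell cannot be told apart. Mice were housed singly, but the labels do not say which mouse each array holds, so the p-values measure only the spread between arrays, which may in part be technical.

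Several arrays stood apart before any member was considered. Each marker list was scored per array by taking every gene's log2 level minus its adult control mean and then the median of these values. The B and plasma cell score (8 markers) was 5.56, 4.00, 1.86 and 1.17 in old controls 1 to 4, 3.72 in old HIIT 2, and between 0.28 and 0.49 in old MICT. The score of 6 neutrophil markers was 7.66 in old control 4, 5.91 in old HIIT 1 and 4.47 in old MICT 3; Ngp, Ltf and Mpo were above background on no adult control array, so that their deviations are set against background signal. The score of 7 adipocyte markers was 3.87, 3.13, 2.20 and 0.31 in old controls 1 to 4. Trained groups also held arrays with a high score: adult HIIT 3 reached 3.02, adult MICT 1 and 3 lay at 2.32 and 2.19, old MICT 2 at 2.29, and old HIIT 2, 3 and 4 at 2.04 or above. The score of 6 myofibre markers, all well above background on every array, was -0.34, -0.61, 0.32 and -0.35 in old controls 1 to 4, -0.56 in old HIIT 2 and -0.51 in adult HIIT 3. The 6 groups lay on 3 slides: adult controls with adult HIIT, adult MICT with old controls, and old HIIT with old MICT. Between slides, slide and group cannot be told apart.

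**Figure D1:**
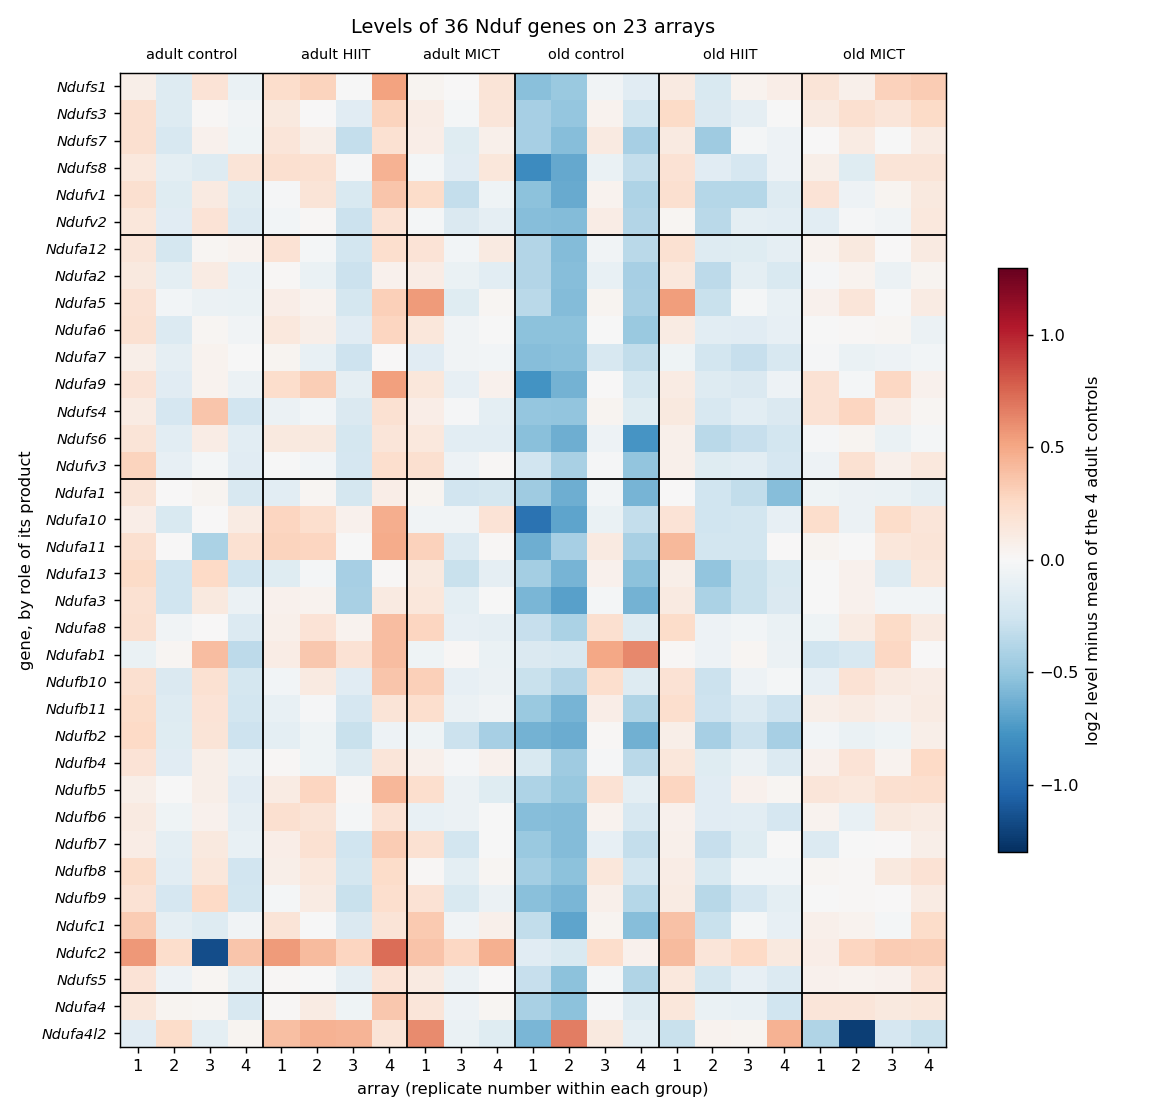
Log2 level of 36 of the tested Nduf genes (rows, grouped from top to bottom as core subunits, accessory subunits of the peripheral arm, accessory subunits of the membrane arm, and Ndufa4 with Ndufa4l2) on each of the 23 arrays (columns), as the difference from the mean of the 4 adult controls. Old controls 1, 2 and 4 are blue in almost every row and old control 3 is not; the darkest single cells are Ndufc2 in adult control 3 and Ndufa4l2 in old MICT 2.

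The members moved together from array to array. With group means removed, the median correlation between 2 members over the 23 arrays was 0.753 (666 pairs), and 1 component held 63.1% of the variance, with 36 of 37 members on the same side; this is a description of arrays that share a scaling factor per array. The exceptions were Ndufa4l2, with a median correlation with the other members of -0.11, Ndufc2 (0.20, adult control 3 included) and Ndufab1 (0.41). The median deviation of the 37 members from the adult control mean was 0.18, -0.14, 0.06 and -0.10 in adult controls 1 to 4, 0.08, 0.08, -0.19 and 0.22 in adult HIIT, and 0.15, -0.09 and -0.00 in adult MICT 1, 3 and 4. In old controls it was -0.48, -0.56, 0.04 and -0.35. Thus 3 old controls lay below every other array, and the remaining one lay among the adults. Old HIIT arrays were at 0.13, -0.24, -0.14 and -0.11, and old MICT arrays at 0.03, 0.04, 0.04 and 0.11. The number of members above their adult control mean was 0, 1, 21 and 2 of 37 in old controls 1 to 4.

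**Figure D2:**
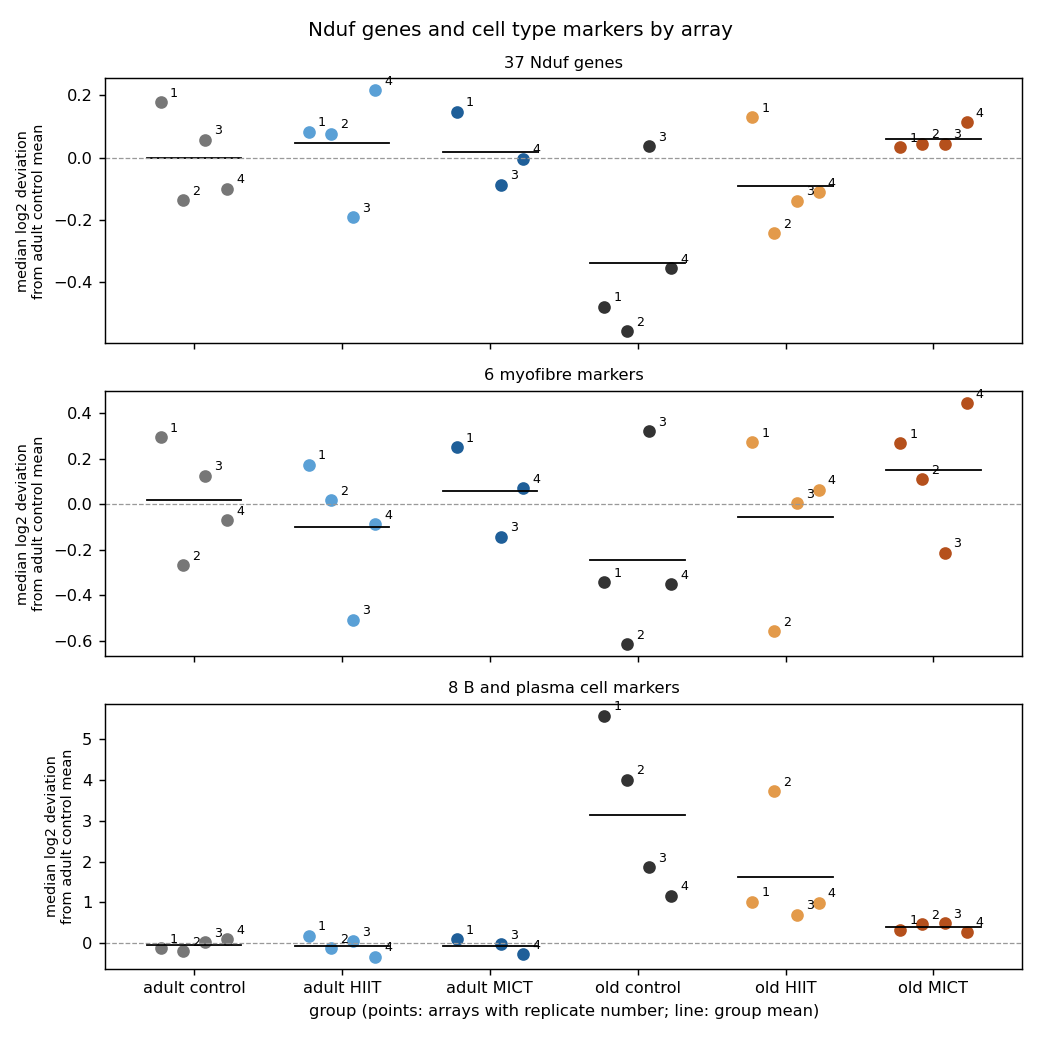
Median log2 deviation from the adult control mean on each array (points, with replicate number) for the 37 Nduf genes, 6 myofibre markers and 8 B and plasma cell markers; lines are group means. Old controls 1, 2 and 4 are low for both the Nduf genes (-0.48, -0.56 and -0.35) and the myofibre markers, and old controls 1 and 2 are the highest for B and plasma cell markers.

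Complex I transcripts were lower in sedentary old muscle than in sedentary adult muscle. The old and adult controls lay on different slides, so age and slide cannot be told apart here. Of the 37 members, 9 fell in old controls against adult controls and none rose. Over all features, 9.07% fell and 4.58% rose by the same rule, so the share of members that fell (24.3%) was above that background. The median difference of the members was -0.35, with 35 of 37 below 0, against -0.15 over all features. Signals of the 9 genes in old controls were 0.702 to 0.775 times those in adult controls. Only 1 member, Ndufa7, had groups that did not overlap, against 11% of all features in that direction; old control 3 lay within the adult control range for most members.

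By role, 1 of the 7 core subunits fell, 4 of 9 accessory subunits of the peripheral arm and 4 of 19 of the membrane arm; neither Ndufa4 nor Ndufa4l2 was called. Ndufs8, a core subunit that carries iron-sulphur clusters, was at 5.04, 4.78, 4.74 and 5.07 in adult controls and at 4.09, 4.25, 4.82 and 4.60 in old controls. Old controls 1, 2 and 4 lay below every adult control and old control 3 did not. The difference was -0.47 ± 0.15 (adjusted p = 0.040). The core subunits Ndufv1 (which binds NADH and the flavin), Ndufv2, Ndufs1, Ndufs3 and Ndufs7, had differences between -0.28 and -0.39 and were not called, with adjusted p from 0.076 to 0.12.

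Ndufa7, an accessory subunit of the peripheral arm, had the smallest adjusted p in this comparison. Its level was 7.47, 7.28, 7.44 and 7.39 in adult controls and 6.84, 6.85, 7.19 and 7.07 in old controls. The groups did not overlap, and the difference was -0.41 ± 0.089 (adjusted p = 0.011). Ndufs6, a zinc-binding subunit of the same arm, was at 8.41, 8.10, 8.34 and 8.11 in adult and at 7.70, 7.60, 8.17 and 7.48 in old controls, where again only old control 3 reached the adult range. It fell by 0.50 on the log2 scale (SE 0.13, adjusted p = 0.023). Ndufa6, a LYR-motif protein that binds the acyl carrier protein, and Ndufa2, a thioredoxin-fold protein, fell by 0.39 and 0.37 on the log2 scale.

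In the membrane arm the called falls were of Ndufa10, Ndufa3, Ndufb2 and Ndufa1. Ndufa10, a protein related to nucleoside kinases, was at 5.26, 4.98, 5.18 and 5.28 in adult controls and at 4.21, 4.50, 5.09 and 4.87 in old controls, a difference of -0.51 ± 0.15 (adjusted p = 0.035). Old controls 1 and 2 were the lowest of all 23 arrays. Ndufa3 and Ndufb2, small single-span subunits, fell by 0.49 and 0.47 on the log2 scale, and Ndufa1, which is X-linked and needed for assembly of the membrane arm, by 0.43. The members with differences above 0 were Ndufab1 and Ndufa4l2, at 0.18 ± 0.18 and 0.02 ± 0.24, neither of them called.

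The age count changed with the arrays used. Here and in the alternatives below, counts are of members only. The share of all features called was not counted for them, so a change in calls over the whole array is not set apart. Without old control 3 the count was 31, without old control 1 or old control 2 it was 1, without old control 4 it was 3, and without old controls 1 and 2 together it was 0; leaving out adult control 1 or 3 also left 1 call, and adult control 4 left 3. Quantile scaling left 5 calls and a median of -0.17, no filter on dim probes left 3, array weights gave 30, and no member was called when only the 8 control arrays were fitted, in the additive model with slide (median -0.13) or with arrays scaled to the 6 myofibre markers (median -0.11, against 0.09 over all features). All 6 myofibre markers had differences below 0 in this comparison (median -0.33) and 1 was called, the muscle creatine kinase Ckm (-0.78 ± 0.22, adjusted p = 0.029). The log2 of the summed signals of those markers, which the brightest weigh on most, ranged from 11.72 to 12.24 in adult controls and from 11.36 to 12.21 in old controls. Of the 8 B and plasma cell markers 5 rose. The log2 of the summed signals of all 8 was 0.54 to 0.69 in adult controls and 1.64 to 5.82 in old controls. Cd79a, Ms4a1 and Pou2af1 were above background on no adult control array. Of the 7 adipocyte markers 3 rose, and of the 8 T and NK cell markers 5, with scores of 4.28, 3.65, 1.95 and 0.68 in old controls 1 to 4. Cd3d, Cd8a, Cd8b1 and Gzmb were above background on no adult control array and Cd3g on 1. Deviations of these T and NK cell markers are thus set largely against background signal. For all 8 of them, the log2 of the summed signals reached 3.11 in adult controls and was 2.44 to 3.82 in old controls, so the ranges overlapped. All 4 endothelial markers had differences below 0 (median -0.41) and none was called; their score was -0.25, -0.50, -0.15 and -0.68 in old controls, below the -0.06 to 0.03 of adult controls with no overlap. Their part in the lower member levels was not tested.

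**Figure D3:**
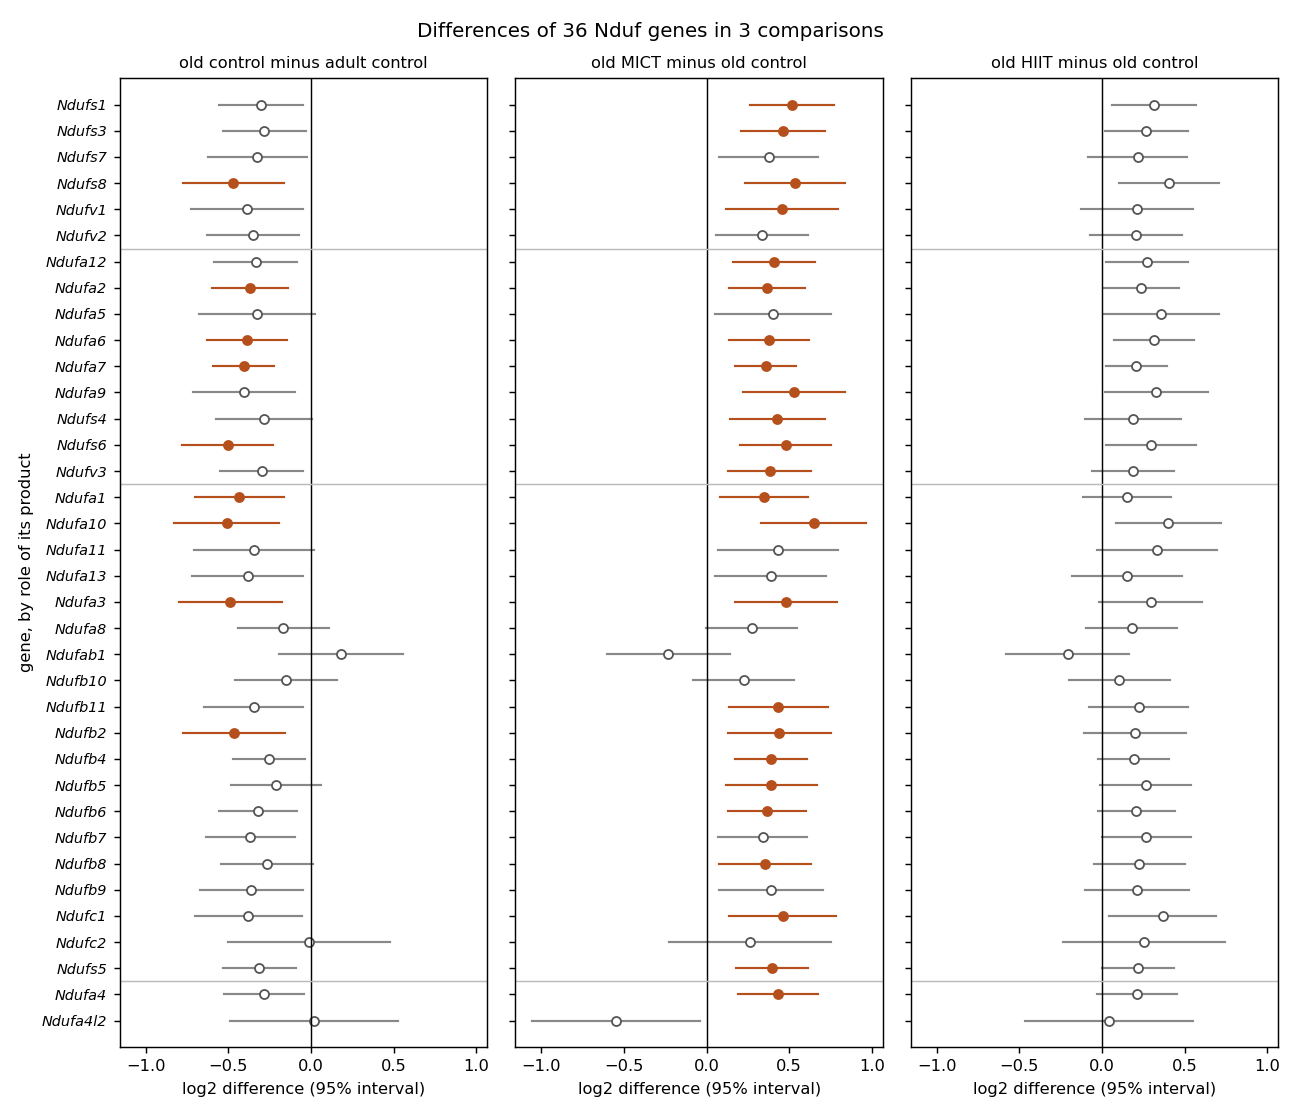
Log2 difference of 36 of the Nduf genes with its 95% interval in 3 comparisons that share the old controls: old against adult controls, old MICT against old controls and old HIIT against old controls. Filled symbols are called at an adjusted p under 0.05 (9, 24 and 0 of the genes drawn); the intervals of most genes lie below 0 in the first panel and above 0 in the second, and Ndufa4l2 and Ndufab1 lie apart from the rest in the second.

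Old mice trained by MICT had higher complex I transcripts than old controls. These groups lay on different slides, so training and slide cannot be told apart here. Of the 37 members, 25 rose (67.6%) and none fell, where 21.2% of all features rose and 9.03% fell by the same rule. The median difference was 0.39 against 0.19 over all features, and 35 of 37 members were above 0. The called rises were at least 1.27-fold. For 9 members (24.3%) the groups did not overlap and old MICT was higher, against 16.5% of all features. Because this comparison uses the same old controls as the age comparison, the values of both stand side by side here and are not counted as separate evidence.

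Of the core subunits, 5 of 7 rose, among them Ndufs1, Ndufs3, Ndufs8 and Ndufv1. Ndufs1, which carries iron-sulphur clusters of the peripheral arm, was at 6.67, 6.73, 7.16 and 7.06 in old controls and at 7.37, 7.28, 7.50 and 7.53 in old MICT. Every trained array was above every control, and the difference was 0.52 ± 0.12 (adjusted p = 0.0074). Ndufs3 was at 7.27, 7.20, 7.75 and 7.46 in old controls and at 7.82, 7.91, 7.86 and 7.95 in old MICT, again with no overlap (0.46 ± 0.12, adjusted p = 0.011). Ndufs8 rose by 0.53 ± 0.15 and Ndufv1 by 0.45 ± 0.16. Ndufs7, which takes part in the ubiquinone pocket, and Ndufv2 had differences of 0.38 ± 0.14 and 0.34 ± 0.13 with adjusted p of 0.053 and 0.060, just outside the threshold.

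Among accessory subunits of the peripheral arm, 8 of 9 rose. Ndufa9, a nucleotide-binding protein near the ubiquinone site, rose by 0.53 ± 0.15 (1.44-fold, adjusted p = 0.015); old controls were at 5.31, 5.47, 6.09 and 5.86 and old MICT at 6.28, 6.07, 6.35 and 6.14, and the groups overlapped by old control 3 and MICT 2. Ndufa7 was at 7.38, 7.31, 7.33 and 7.36 in old MICT, above all old controls, with a difference of 0.36 ± 0.089 (adjusted p = 0.0086). Ndufs6 and Ndufs4, the latter known from the knockout mouse that models Leigh syndrome, rose by 0.48 ± 0.13 and 0.43 ± 0.14. The exception was Ndufa5, with 0.40 ± 0.17 and an adjusted p of 0.072; its second probe gave 0.40 ± 0.15, with an adjusted p over probes of 0.045.

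In the membrane arm, 11 of 19 accessory subunits rose. Ndufa10 had the smallest adjusted p of all members: its level was 5.41, 5.10, 5.42 and 5.34 in old MICT, above all 4 old controls, a difference of 0.65 ± 0.15 (1.57-fold, adjusted p = 0.0070). Ndufs5 and Ndufb4, 2 of the 3 members with the smallest SD over the 23 arrays, also had groups that did not overlap, with differences of 0.40 ± 0.11 and 0.39 ± 0.10. For Ndufb4, old controls were at 7.78, 7.51, 7.96 and 7.63 and old MICT at 8.03, 8.15, 8.02 and 8.24. The 8 membrane arm subunits that were not called included Ndufb7, Ndufb9, Ndufa11 and Ndufa13, with differences of 0.34 to 0.43 and adjusted p of 0.0506 to 0.0705. The lowest were Ndufc2 (0.26 ± 0.24), Ndufb10 (0.23 ± 0.15) and Ndufab1 (-0.23 ± 0.18).

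The MICT calls too depend on the scaling and on the old controls. None of the 37 was called under quantile scaling (median 0.11, against 0.07 over all features) or with arrays scaled to the myofibre markers (median -0.01, against -0.21). None was called in the additive model with slide (median 0.19), whose MICT effect is shared by both ages and uses no old control array. Fitting only the 8 arrays compared, or leaving out old controls 1 and 2 together, also left 0. Without old control 1, 2 or 4 alone the counts were 13, 9 and 16, and without old MICT 1 or 2 they were 16 and 13. A single factor per array cannot change the distance between members and all features: the members' median stood 0.20 above that of all features with either the 75th percentile or the myofibre scaling, and 0.04 above it with quantile scaling. All 6 myofibre markers were above 0 in this comparison (median 0.48), and Ckm and the fast-fibre actinin Actn3 rose by 0.78 ± 0.22 and 0.66 ± 0.20. The log2 of the summed signals of the myofibre markers ranged from 11.80 to 12.43 in old MICT, and from 11.36 to 12.21 in old controls. Of 7 markers of slow fibres, 1 was above 0 and none was called (median -1.07). Old MICT arrays scored -0.85, -1.43, -2.51 and -0.61 and old controls -1.44, -0.38, 1.37 and -0.66, over a range of -2.51 to 2.07 on the 23 arrays. In old MICT the log2 of the summed signals of the 8 B and plasma cell markers was 0.92 to 1.56. Of these markers 5 fell, as did 5 of 8 T and NK cell, 3 of 5 macrophage and 4 of 6 fibroblast markers. Their part in the member result was not tested.

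**Figure D4:**
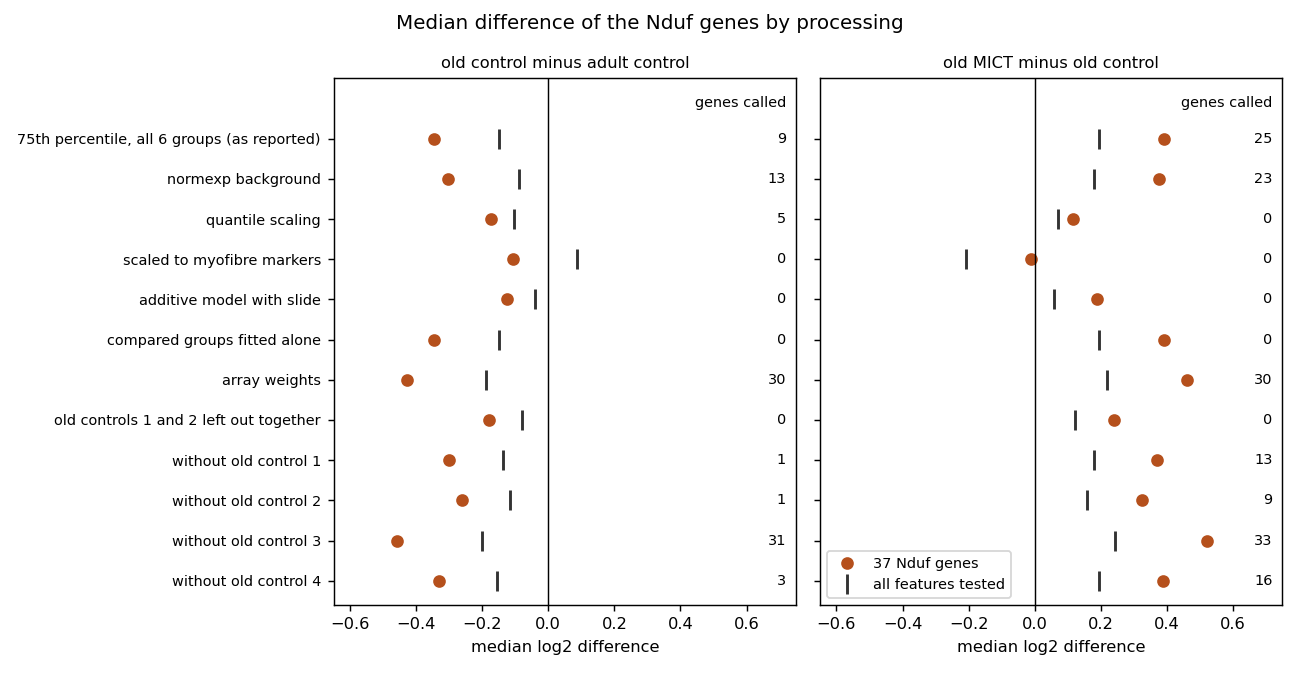
Median log2 difference of the 37 Nduf genes (points) and of all features tested (vertical ticks) in the age and the old MICT comparison under 12 ways of processing, with the number of Nduf genes called at the right of each row. The median stays below 0 for age in all of them, and the count of called genes ranges from 0 to 31 for age and from 0 to 33 for old MICT.

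After HIIT, no complex I member was called in old mice by limma's test, although most differences were above 0. Old HIIT and old controls also lay on different slides. The median over the members was 0.22, against 0.08 over all features, and 36 of 37 were above 0. At an unadjusted p under 0.05, 12 members were higher (32.4%), against 10.7% of all features, while 0.426% of all features rose at the adjusted threshold. The smallest adjusted p was 0.21, for Ndufs8, whose level was 5.10, 4.76, 4.69 and 4.84 in old HIIT (difference 0.41 ± 0.15, 95% interval 0.10 to 0.71). Next were Ndufa6 (0.32 ± 0.12) and Ndufa10 (0.40 ± 0.15), with adjusted p of 0.22 and 0.23. Old HIIT 1 was the highest of the 4 arrays for most members and old HIIT 2, with the low myofibre score, the lowest. Without old control 3, 4 members were called.

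Set against each other on the same slide, old MICT and old HIIT differed in no member at the adjusted threshold, where 0% of all features were called. The median difference, MICT minus HIIT, was 0.16 for the members and 0.09 over all features, and it was -0.02 under quantile scaling and -0.05 with myofibre scaling. No member was higher in old MICT even at an unadjusted p under 0.05, against 11.1% of all features. For Ndufb4 the difference was 0.20, with a 95% interval of -0.02 to 0.42, and for Ndufa4 it was 0.22, with an interval of -0.02 to 0.46. The member with the smallest p was Ndufa4l2, which was lower in MICT (-0.59 ± 0.24, adjusted p = 0.24). A p that misses the threshold does not show that the regimens act alike.

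In adult mice neither regimen gave a called member. Adult HIIT lay on the slide of the adult controls: its median difference was 0.06 over the members and -0.01 over all features, 0% of all features were called, and 2 members (5.41%) were higher at an unadjusted p under 0.05, against 1.84% of all features. These were Ndufc2 (0.49 ± 0.24), for which adult control 3 was the low array and which differed by 0.11 ± 0.12 without it, and Ndufs1 (0.26 ± 0.12). Ndufs1 was at 7.28, 7.04, 7.38 and 7.12 in adult controls and at 7.43, 7.49, 7.20 and 7.72 in adult HIIT, so that 1 trained array lay within the control range. Ndufa10 followed with 0.26 ± 0.15 (adjusted p = 0.91 for all 3).

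Adult MICT, on another slide than the adult controls, gave a median of 0.01 over the members and -0.03 over all features. No member and 0% of all features were called, and no member passed an unadjusted p under 0.05, against 2.11% of all features. The smallest p values belonged to Ndufb2 (-0.25 ± 0.16), Ndufc2 (0.37 ± 0.25, and -0.02 ± 0.13 without adult control 3) and Ndufa1 (-0.15 ± 0.14), each with an adjusted p of 1.00. For adult MICT against adult HIIT, the median was -0.07. The median deviation of all features from the adult control mean averaged -0.02 in adult MICT and -0.03 in adult HIIT. No member was called or passed the unadjusted threshold, where 0% and 7.68% of all features did. The members with the smallest p were Ndufab1 (-0.30 ± 0.19), Ndufb6 (-0.19 ± 0.12) and Ndufb5 (-0.22 ± 0.14).

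The difference between ages in the response to MICT was tested as an interaction. No member was called, against 0.582% of all features with a larger rise in old mice. The median of the old response minus the adult response was 0.40 for the members and 0.21 over all features, and 18 members (48.6%) had an unadjusted p under 0.05 with a larger rise in old mice, against 18.9% of all features. The smallest p values were for Ndufa7 (0.44 ± 0.13, adjusted p = 0.091), Ndufb2 (0.70 ± 0.22, adjusted p = 0.097) and Ndufa10 (0.62 ± 0.22, adjusted p = 0.12). The count was 17 with array weights, 12 without old control 3 and 2 at an adjusted p under 0.10, and 0 under every other alternative run; the median ranged from 0.01 with myofibre scaling to 0.54 with array weights. The same difference for HIIT had a median of 0.20. For scale, the median deviation of all features from the adult control mean averaged -0.16 in old controls, -0.05 in old HIIT and -0.03 in adult HIIT. In this HIIT difference no member and 0% of all features were called. At an unadjusted p under 0.05, 1 member was higher, Ndufa7 (0.29 ± 0.13), or 2.70% of the members against 7.78% of all features; Ndufa2 (0.31 ± 0.16) and Ndufab1 (-0.47 ± 0.25) came next.

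Trained old muscle was also set beside untrained adult muscle. For scale, the median deviation from the adult control mean was averaged over the arrays of a group. It was 0.06 for the members and 0.04 over all features in old MICT, and -0.09 and -0.05 in old HIIT. Old MICT against adult controls had a median of 0.07 and no called member, where 0.451% of all features were called. At an unadjusted p under 0.05, 1 member differed, Ndufa4l2 (-0.53 ± 0.24), against 18.3% of all features; Ndufs1 (0.21 ± 0.12) and Ndufs3 (0.18 ± 0.12) had the next smallest p. Old HIIT against adult controls had a median of -0.10 and no called member, where 0.0169% of all features were called. There, 2 members passed the unadjusted threshold, Ndufa7 (-0.20 ± 0.089) and Ndufa1 (-0.28 ± 0.13), against 12.5% of all features, and Ndufb2 (-0.27 ± 0.15) followed. For the 7 core subunits the difference between old MICT and adult controls lay between -0.02 and 0.21.

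A comparison of ages within 1 slide was possible only between old controls and adult MICT, which also differ in training. There 2 members were lower (5.41%), against 3.05% of all features: Ndufa7 (-0.33 ± 0.096, adjusted p = 0.045) and Ndufa6 (-0.42 ± 0.13, adjusted p = 0.0497). The median was -0.33, against -0.13 over all features, and 36 of 37 members were below 0. For 6 members (16.2%) every old control was below every adult MICT array, against 12.6% of all features. Ndufa7 was at 7.25, 7.35 and 7.36 in adult MICT, above the 4 old controls. Ndufa12, a peripheral arm subunit, was at 7.91, 7.70 and 7.85 in adult MICT and at 7.35, 7.17, 7.69 and 7.38 in old controls (-0.42 ± 0.13, adjusted p = 0.053). The count of 2 depended on single arrays: it was 26 without old control 3, 0 without old control 1, 2 or 4 or adult MICT 3 or 4, and 1 without adult MICT 1. It was 18 with array weights and 4 with quantile scaling, and 0 with myofibre scaling (median -0.08), with only the 7 arrays compared and without a filter on dim probes.

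Ndufc2 and Ndufab1 stood apart from the other members. Ndufc2, a membrane arm subunit, had 1 value far from the rest: adult control 3 was at 5.29, where the other adult controls were at 7.02, 6.68 and 6.81 and all other arrays between 6.26 and 7.17. That array is also the one on which the Ndufb3 spot was marked as an outlier. The age difference of Ndufc2 was -0.01 ± 0.24 with that array included and -0.40 ± 0.12 without it (adjusted p = 0.066), so its distance from the other members in this comparison came from that array. Ndufab1, the mitochondrial acyl carrier protein, which also serves fatty acid synthesis and lipoic acid production outside complex I, was at 0.44, 0.43, 1.13 and 1.25 in old controls and at 0.37, 0.42, 0.90 and 0.64 in old MICT. The groups overlapped, and its difference was below 0 in both old MICT and old HIIT.

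Ndufa4 and Ndufa4l2 carry the family name but are not counted as complex I subunits today. Ndufa4, now assigned to complex IV, followed the other members: it was at 7.05, 6.93, 7.45 and 7.30 in old controls and at 7.63, 7.63, 7.59 and 7.62 in old MICT, with no overlap, and rose by 0.43 ± 0.12 (adjusted p = 0.012). Ndufa4l2, known as a hypoxia-induced relative, had the largest SD of all members, with old controls at 1.54, 2.80, 2.26 and 2.01 and old MICT at 1.74, 0.91, 1.92 and 1.85. The difference of -0.55 ± 0.24 was not called (adjusted p = 0.090), and it was the only member lower at an unadjusted p under 0.05. Without this pair, the 35 complex I members gave the same count of falls with age, 9, and 24 rises with MICT.

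Ndufb3, a membrane arm subunit left out of the tests, was at 6.70, 6.58, 5.95 and 6.36 in adult controls, where 5.95 is the spot marked as an outlier, at 6.08, 5.95, 6.70 and 6.00 in old controls and at 6.67, 6.49, 6.73 and 6.42 in old MICT. With outlier spots kept, its difference was -0.21 ± 0.20 for age (adjusted p = 0.47) and 0.40 ± 0.20 for old MICT (adjusted p = 0.13). A second probe was present for 6 members. The probes of Ndufb4 and Ndufb6 gave the same calls for age and old MICT. For Ndufa5 the probe that was not used was called in both: it had an age difference of -0.52 ± 0.15 (adjusted p over probes 0.029), where the one used gave -0.33 ± 0.17. For Ndufb11 the unused probe, at a mean level of 0.21, was called for age at -0.64 ± 0.17 (adjusted p over probes 0.023). The Ndufb11 probe used gave -0.35 ± 0.14 (adjusted p over probes 0.10) and was not called. The second probe of Ndufb5 gave 0.31 ± 0.15 for old MICT and was not called, against 0.39 ± 0.13. For Ndufv3 the second probe, at a mean level of -0.32, gave -0.23 ± 0.24 for old MICT where the one used gave 0.38 ± 0.12, so the probes of this gene disagree in sign.

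The other parts of the respiratory chain and of the machinery that builds complex I were described in the same way. Over all features, 9.07% fell with age, and in old MICT 21.2% rose and 9.03% fell by the same rule. Several of the lists are short, so that 1 gene makes up a large share. Of 18 assembly factors, 1 fell with age and 9 rose with MICT in old mice (medians -0.24 and 0.39). The fall was of Tmem126b, an assembly factor of the membrane arm (-0.40 ± 0.12, adjusted p = 0.038), followed by Ndufaf3 (-0.42 ± 0.16) and Ecsit (-0.31 ± 0.12), which were not called. In old MICT, Tmem186 (0.77 ± 0.17), Ndufaf6 (0.56 ± 0.15) and Ecsit (0.44 ± 0.12) had the smallest p. Complex II, which passes electrons from succinate, had 0 of 4 genes called for age and 1 rise in old MICT, complex III 0 and 6 of 9, complex IV 2 falls for age and 4 rises and 1 fall in old MICT among 13, and ATP synthase 3 falls and 7 rises among 15. The medians of these 4 lists lay between -0.19 and -0.36 for age and between 0.36 and 0.41 for old MICT, and the complex I medians of -0.35 and 0.39 lay inside both ranges.

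Among 15 regulators of mitochondrial biogenesis, none was called for age by limma's test (median -0.29), and the smallest p values were those of Polrmt, the mitochondrial RNA polymerase (-0.35 ± 0.13), Esrra (-0.34 ± 0.13) and Esrrg (-0.93 ± 0.38), genes for oestrogen-related receptors. In old MICT, 8 of the 15 rose, where 21.2% of all features did. The smallest p values were those of Tfb2m, a mitochondrial transcription factor (0.69 ± 0.14, adjusted p = 0.0048), Ppard, a nuclear receptor (0.83 ± 0.21), and Polrmt (0.51 ± 0.13). The gene of PGC-1alpha itself, Ppargc1a, named here after its values were seen, differed by 0.02 ± 0.20 in old MICT. The lists of assembly factors, complexes and regulators were compared by counts and medians only, and no test set one list against another.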

How the data were processed

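Gastrocnemius RNA in 6 groups was measured on 23 arrays. Per the file headers, the deposited scanner files come from Agilent Feature Extraction 12.0.3.1, and the processed signal used here is an intensity after the authors' background subtraction. Other deposited columns, the flags for spots above background, saturated or marked as outliers, were used as given. The deposited series table is a score per spot to 1 decimal that follows log10 of the signal (r at least 0.9995 on every array); its centring is unknown, and 1 step is 0.389 on the log2 scale, so it served only as an alternative.

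Control and outlier spots were left out, signals were taken as log2 minus each array's 75th percentile, and spots of a probe were averaged. Probes without a value on every array were dropped (283 probes). A probe was tested if well above background on at least 3 arrays, and the probe with the highest mean stood for a symbol. limma 3.58.1 in R 4.3.3 fitted 6 group means with an intensity trend over 23715 features, with Benjamini-Hochberg adjustment. All 12 comparisons came from this fit. The same code was also run on simulated data, whose noise was independent between features and held no array or slide effect. Members here moved together, so that run cannot speak to the counts of members called. The percent of spots well above background ran from 47.2% (old control 3) to 58.9% (old HIIT 2), and the number of arrays limits the precision. The log2 75th percentile that was subtracted ran from 8.03 in old MICT 4 to 9.36 in adult HIIT 3 and old HIIT 2. In old controls 1 to 4 it was 8.38, 9.05, 8.14 and 8.85. Its part in the differences between arrays was not tested.

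The members and lists were chosen with earlier results of these data known. Named genes are the 7 core subunits, up to 5 called members with the largest rise and fall per comparison (the 3 with the smallest p where fewer than 5 were called), Ndufa4 and Ndufa4l2, the 3 largest and smallest SDs, probes that disagree, and the 3 smallest p of the assembly factor and regulator lists. The values of 1 member are not reported here; it stays in all counts and medians. Further members were added as examples after their values were seen. Same-numbered arrays showed little shared deviation in the median (55 pairs, r from -0.44 to 0.40, median 0.041, with 20 pairs over 0.1). Different-numbered arrays had a median r of -0.025. Such a spread of r cannot exclude a pairing, and the number is also the array's column on its slide. The main fit used no pairing. Alternatives were quantile scaling, normexp background, other probe filters and summaries, array weights, other thresholds, smaller fits, slide, a replicate block, the deposited table and arrays left out; scaling to myofibre markers and keeping outlier spots were added after the data were seen.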

Additional observations from a re-analysis of the deposited data

Results flagged for a closer look

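Of the 180 groups of 4 arrays checked over 36 members, 10 held 1 array far from the other 3 relative to the range of the group. That share is close to the 5% that chance gives, so the count itself is no result. Members move together, so these 10 are not independent. In adult HIIT, array 3 was low for Ndufa3 (7.50, the others 7.97 to 8.03), Ndufb6 (6.41) and Ndufs6 (8.01). In old controls, array 3 was high for Ndufa3 (7.89, the others 7.21 to 7.32), Ndufa6 (6.61) and Ndufb2 (6.77). In old HIIT, array 1 was high for Ndufa12 (7.93), Ndufa6 (6.71) and Ndufa8 (5.68). In old MICT, array 4 was high for Ndufs5 (7.64). The median deviation of all members also stood apart in old MICT 4, at 0.11, where the other 3 arrays lay between 0.03 and 0.04.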

How the results depend on the processing

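The age count of 9 was 5 with quantile scaling, 3 without a filter on dim probes, 30 with array weights, 21 at an adjusted p under 0.10, 1 to 31 when 1 array was left out, and 0 with the compared groups alone, the additive model with slide, the deposited table, a threshold of 0.01, myofibre scaling, or old controls 1 and 2, or 1, 2 and 4, left out. The old MICT count of 25 was 3 at 0.01, 9 to 33 when 1 array was left out, and 0 with quantile scaling, the compared groups alone, the additive model, the deposited table, myofibre scaling and both sets of old controls left out. The old HIIT count of 0 was 0 to 4 when 1 array was left out. The age median of -0.35 was -0.13 in the additive model, -0.097 in the deposited table, -0.11 with myofibre scaling and 0.036 without old controls 1, 2 and 4. The old MICT median of 0.39 was 0.11 with quantile scaling, 0.19 in the additive model, 0.097 in the deposited table, 0.023 without old controls 1, 2 and 4 and -0.011 with myofibre scaling. The old HIIT median was 0 in the deposited table and -0.10 without those 3 controls. For adult MICT the additive model gave a median of 0.19, the same 1 value as for old MICT. The median of old MICT against old HIIT was -0.019 with quantile and -0.053 with myofibre scaling. Single genes changed sign as follows. For adult MICT, the effect that the additive model shares between ages was 0.11 for Ndufb2 and 0.13 for Ndufa1. For Ndufc2 adult MICT gave -0.019 (without adult control 3) to 0.56 when 1 array was left out. Without old controls 1, 2 and 4, age gave 0.012 for Ndufb2, old MICT gave -0.054 for Ndufa1, -0.0084 for Ndufa6, -0.039 for Ndufb2, -0.0092 for Ndufb5 and -0.057 for Ndufb8, and old HIIT gave -0.069 for Ndufa6 and -0.023 for Ndufa10. Old controls 1, 2 and 4 are the 3 arrays on which the members were lowest, and 1 control array remains without them, so these values follow from the choice of arrays and say nothing about stability. Myofibre scaling subtracts 1 factor from each array, so its signs restate 1 shift rather than separate changes of genes: old MICT gave -0.056 for Ndufa1, -0.037 for Ndufa2, -0.026 for Ndufa6, -0.044 for Ndufa7, -0.013 for Ndufb4, -0.011 for Ndufb5, -0.038 for Ndufb6, -0.048 for Ndufb8, -0.0070 for Ndufs5 and -0.021 for Ndufv3, old MICT against old HIIT gave -0.012 for Ndufb4, and the HIIT response, old minus adult, gave -0.023 for Ndufa7 and -0.0035 for Ndufa2. With the replicate number as a replicate block, which the main fit left out, the counts were 10 for age and 24 for old MICT. The additive model rests on fewer contrasts and assumes 1 training effect at both ages. Its MICT effect is adult HIIT minus adult controls plus old MICT minus old HIIT. That effect is thus 1 value for both ages, and uses no adult MICT or old control array. The smaller fits rest on fewer arrays. Counts under these alternatives are of members only, and the share of all features called was not counted for them. The cause of the other changes was not tested.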
